A study of Mus musculus with 16 samples.

Results

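The 10 genes described here are Gsn, Dcn, Lum, Dpt, Dpep1, Pdgfra, Fbln1, Prg4, Cytl1 and Mgst1. They are grouped as genes of cardiac fibroblasts, but bulk heart RNA does not show which cells made their transcripts. Dcn, Lum, Dpt, Fbln1 and Prg4 encode matrix proteins and proteoglycans, Pdgfra a growth factor receptor, Gsn an actin-binding protein, Dpep1 and Mgst1 enzymes and Cytl1 a small secreted protein. They were chosen by gene symbol from results of these same libraries, in which all 10 stood higher in CPT2/USP30 double KO than in CPT2 single KO hearts. Which measured values chose them is not recorded, so the levels of the 10 genes are given as a description in both comparisons, and no member is given a p of its own. Where members past a threshold are counted, the count is set beside the share of all genes past it, and nothing is read from it. All 10 were found among the 14138 genes of the first count table and among the 17831 of the second, and all 10 passed the filter on low counts in both (14123 and 12997 genes did). Total RNA of 16 mouse hearts was sequenced after removal of ribosomal RNA. The first table holds 5 wild type hearts and 5 CPT2H-KO hearts, in which cardiomyocytes lack carnitine palmitoyltransferase 2 (Cpt2), needed to bring long-chain fatty acids into mitochondria for oxidation. The second table holds 3 hearts labelled CPT2 single KO, whose genotype is also CPT2H-KO, and 3 CPT2/USP30 double KO hearts (genotype CPT2/USP30H-KO). The double KO hearts also lack Usp30, which encodes a deubiquitinase on mitochondria that restrains mitophagy. Every heart of the second table thus carries the Cpt2 deletion, so USP30 loss is seen there only on that background. For Usp30 alone the series names a Myh6-Cre driver with a floxed Usp30 allele, and Myh6-Cre acts in cardiomyocytes; the sources used here do not give the Cre used for Cpt2 or the age and sex of the animals. The tables were made separately, so groups were compared only within each. The 16 libraries are labelled as biological replicates, and nothing states whether littermates or separate preparations were used.

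Fibroblasts of the heart lie between the muscle cells and produce collagens, elastic fibres and proteoglycans. Decorin and lumican, encoded by Dcn and Lum, are small leucine-rich proteoglycans: a curved protein core that binds collagen fibrils and carries a sulfated sugar chain. Resting fibroblasts are recognised by Pdgfra, Dcn and Tcf21, while fibroblasts activated by injury make Postn, Cilp and Fn1. Gsn encodes gelsolin, which severs and caps actin filaments and is also secreted into plasma; it is abundant in fibroblasts, and cardiomyocytes and smooth muscle make it too.

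The genes lie on 7 chromosomes (GRCm38, GENCODE M21). Gsn lies at chr2:35256380-35307892 on the plus strand. Dcn, at chr10:97479609-97518143, and Lum, at chr10:97565128-97572703, are neighbours on the plus strand. Dpt lies at chr1:164796644-164824266, Fbln1 at chr15:85205949-85286535, Dpep1 at chr8:123186242-123201812 and Mgst1 at chr6:138140316-138156755, all on the plus strand. Pdgfra, at chr5:75152292-75198215, and Cytl1, at chr5:37735519-37739820, share a chromosome and the plus strand. Prg4 lies at chr1:150449412-150466165 on the minus strand, where its span overlaps Tpr on the opposite strand. The sources used here do not say whether the counting used strand, so reads of Prg4 and Tpr may be mixed. Tpr itself had a log2 difference of 0.08 between double KO and single KO hearts, and rose from 97.1 to 119 CPM in CPT2H-KO against wild type hearts (log2 fold change 0.29, edgeR adjusted p = 0.0146). Dpt and Pdgfra overlap annotated antisense transcripts, and Gsn and Dpep1 overlap a further gene model on their own strand, so their counts carry the same uncertainty.

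Upstream windows of 250 bases ending at a transcript start were available for 7 of the 10 genes, 11 windows in all (RefSeq, GRCm38.p6); Dcn, Lum and Prg4 had none. The windows below belong to 3 of the 5 genes that were more than 2-fold higher in double KO than in single KO hearts, and are shown because these genes stood higher together. Windows that touch an exon are left out. Capitals mark matches on either strand: the GC box was searched as GGGCGG, the CCAAT box by its own letters, and the E-box bound by basic helix-loop-helix factors as CAGCTG. The TATA box was searched as TATAAA, the AP-1 motif as TGANTCA and the TEAD motif as GGAATG. Matches of different motifs did not overlap in these windows. Gsn windows 1, 2 and 3 are at chr2:35256109-35256358, chr2:35266494-35266743 and chr2:35282130-35282379, the Fbln1 window at chr15:85205699-85205948 and the Cytl1 window at chr5:37735269-37735518, all read from the plus strand.
Gsn window 1: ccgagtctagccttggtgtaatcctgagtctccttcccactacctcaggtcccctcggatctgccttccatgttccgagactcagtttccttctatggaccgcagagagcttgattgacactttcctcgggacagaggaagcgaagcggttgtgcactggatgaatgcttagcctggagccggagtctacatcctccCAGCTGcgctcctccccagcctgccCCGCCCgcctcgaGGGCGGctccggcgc
Gsn window 2: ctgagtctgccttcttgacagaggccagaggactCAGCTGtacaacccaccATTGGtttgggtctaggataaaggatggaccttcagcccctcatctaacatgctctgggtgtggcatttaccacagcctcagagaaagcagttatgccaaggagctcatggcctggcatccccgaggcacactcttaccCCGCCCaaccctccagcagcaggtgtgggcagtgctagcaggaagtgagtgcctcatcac
Gsn window 3: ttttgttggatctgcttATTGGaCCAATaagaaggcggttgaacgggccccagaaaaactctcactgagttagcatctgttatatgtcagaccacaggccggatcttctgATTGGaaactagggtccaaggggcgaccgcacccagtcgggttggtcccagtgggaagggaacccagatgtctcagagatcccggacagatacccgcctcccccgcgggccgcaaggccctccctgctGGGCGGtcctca
Fbln1 window 1: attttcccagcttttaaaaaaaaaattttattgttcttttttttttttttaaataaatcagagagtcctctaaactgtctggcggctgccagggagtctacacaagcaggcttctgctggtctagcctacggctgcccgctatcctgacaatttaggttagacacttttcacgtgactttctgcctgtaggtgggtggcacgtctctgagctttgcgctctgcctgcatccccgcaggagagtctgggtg
Cytl1 window 1: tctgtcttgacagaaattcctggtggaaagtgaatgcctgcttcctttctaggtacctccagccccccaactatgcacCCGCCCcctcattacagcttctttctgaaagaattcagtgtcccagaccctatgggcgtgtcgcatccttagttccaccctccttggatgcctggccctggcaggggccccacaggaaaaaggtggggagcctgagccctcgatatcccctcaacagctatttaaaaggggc

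The 11 windows counted here include those that touch an exon, and windows of the same gene are not independent. A GC box was matched in 6 of the 11 windows, which belong to 4 genes and include all Gsn windows. It was matched in 32.7% of the 32851 windows of all genes searched in the same way. The E-box was matched in 4 of the 11 windows (Gsn windows 1 and 2, Dpt and Fbln1 window 2), against 13% of all windows. The CCAAT box was matched, among the 11, in Gsn windows 2 and 3, and in 33.8% of all windows. The TEAD motif was matched in 1 window, that of Dpep1, against 12.6% of all. Neither the TATA box nor the AP-1 motif was matched in the 11 windows; 12.4% and 6.75% of all windows hold them. Fbln1 window 1 held none of the 6 motifs. No motif was matched in all 7 genes. A match is a string of letters in these windows and not a bound site.

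Libraries of the first table held 54674422 to 132762776 counts, and those of the second held 11067969 to 13532716. Levels below are in CPM, the usual depth-scaled read count, after TMM scaling. Cpt2 stood at 53.0 to 89.9 CPM in wild type and 30.4 to 44.9 CPM in CPT2H-KO hearts, and Usp30 at 18.5 to 22.8 CPM in the single KO hearts and 7.45 to 10.4 CPM in the double KO hearts. Each targeted gene separated its groups without overlap. Some libraries stood apart from their group. Summed CPM of the atrial genes Myl7, Myl4 and Sln was 57.1 to 438 in the 5 wild type hearts. It was 45.5 and 353 in CPT2H-KO replicates 1 and 5 but 1.16 to 2.02 in replicates 2, 3 and 4. In the second table it was 2.93 to 3.58 in single KO hearts, and 9.05, 383 and 1434 in double KO replicates 1, 2 and 3. Summed Y-linked transcripts (Ddx3y, Uty, Kdm5d and Eif2s3y) were at 117 and 124 CPM in single KO replicates 2 and 1 and under 1 CPM in the other 4 libraries of that table. In the first table, wild type replicate 1 and CPT2H-KO replicates 1 and 3 were under 1 CPM and the other 7 were at 82.1 to 121 CPM.

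Fibroblast markers were present in these hearts. Outside the 10 genes, Col1a1 averaged 71.2 ± 21.1 CPM (SD, n = 5) in wild type and 546 CPM in single KO hearts, and Tcf21 2.14 ± 0.63 and 16.9 CPM in the same groups. Wild type and single KO hearts belong to separate tables. Their levels in this paragraph show presence and order within each group, and no difference between them. In bulk heart RNA, fewer fibroblasts and less RNA per fibroblast cannot be told apart. Per kilobase of exon, Gsn stood far above the other 9 genes, at 218 CPM per kb in wild type and 416 in single KO hearts. In wild type hearts it was followed by Dcn at 43.2, Dpt at 24.4 and Lum at 12.9 CPM per kb. Dpep1 (9.95), Fbln1 (7.65), Mgst1 (5.05), Cytl1 (5.03), Pdgfra (3.58) and Prg4 (0.925 CPM per kb) came after. Mgst1 and Cytl1 are neighbours in this order that differed by less than the spread between libraries, Cytl1 having an SD of 2.26 around a mean of 5.32 CPM before length scaling. The order of the first 3 in single KO hearts was Gsn, Dcn (90.0) and Lum (45.8 CPM per kb), with Dpt at 30.2.

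The second table compares double KO with single KO hearts, all with the Cpt2 deletion. Y-linked transcripts were present in single KO replicates 1 and 2 but under 1 CPM in single KO replicate 3 and every double KO heart. Genotype and sex, as read from these transcripts, were thus largely tied, and their parts in the difference were not told apart. All 10 genes stood higher in double KO hearts, from 1.29-fold for Pdgfra to 4.79-fold for Prg4, with a median of 1.00 on the log2 scale. Over all 12997 tested genes the median was 0, and 50.4% were above 0. The summed level of the 10 genes was 2087, 2184 and 2282 CPM in the 3 single KO hearts and 4482, 3955 and 4342 CPM in the 3 double KO hearts. Most of this sum was Gsn and Dcn, with means of 1312 and 525 CPM in single KO and 2694.5 and 927 CPM in double KO hearts. The groups did not overlap for 9 of the 10 genes, Lum being the exception. Of all tested genes, 6.69% were higher without overlap, and since such values may have chosen the genes nothing is read from that. No gene of the table passed an adjusted p of 0.05 in edgeR's quasi-likelihood test (0% of 12997), the lowest adjusted p being 0.127, while 942 genes had an unadjusted p under 0.05. Limma-voom called 0 genes and DESeq2 113. All 10 genes were among those higher at an unadjusted p under 0.05 in edgeR (4.55% of tested genes). DESeq2 called 7 of them higher (0.646% of tested genes). Results in which the genes stood higher were at hand when they were chosen. Both counts may therefore only restate the choice, and nothing is read from them.

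**Figure D1:**
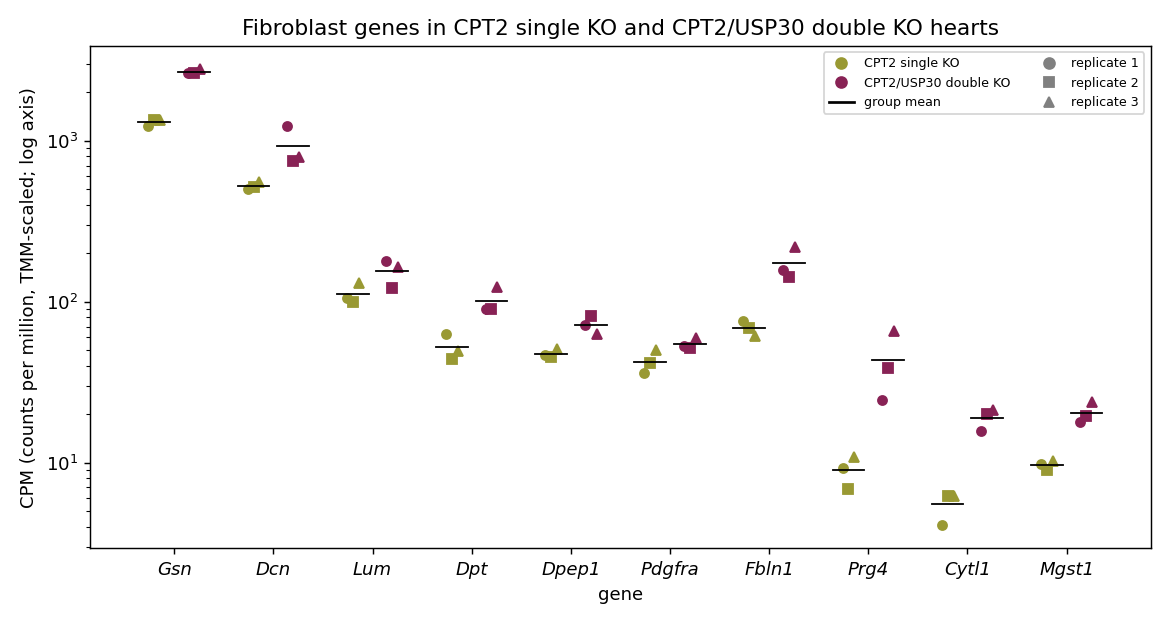
CPM of each gene (log axis) in the 3 CPT2 single KO and 3 CPT2/USP30 double KO libraries, with marker shapes for replicates and a bar at each group mean. The double KO libraries lie above the single KO libraries for every gene except Lum, whose double KO replicate 2, at 122 CPM, falls below single KO replicate 3, at 131 CPM.

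Gelsolin set the scale of the group. Gsn stood at 1237, 1343 and 1356 CPM in single KO replicates 1 to 3 and at 2642, 2637 and 2804 CPM in double KO replicates 1 to 3. All 3 double KO hearts were thus close to one another and about 2.05-fold above the single KO mean of 1312 ± 65.3 CPM (SD, n = 3). The log2 difference was 1.04 ± 0.15 (SE).

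The small leucine-rich proteoglycans were less even across libraries. Dcn, whose product binds collagen and growth factors, stood at 500, 520 and 556 CPM in single KO hearts. In double KO hearts it stood at 1232, 752 and 797 CPM, so that replicate 1 lay well above the other 2. The log2 difference was 0.82 ± 0.20 (SE). Lum, which regulates collagen fibril thickness, stood at 106, 99.6 and 131 CPM in the single KO hearts and 179, 122 and 165 CPM in the double KO hearts. Its groups overlapped, and the log2 difference was 0.47 ± 0.19 (SE).

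Among the other matrix proteins, Fbln1 encodes fibulin-1, a secreted glycoprotein of basement membranes and elastic fibres. It stood at 75.7, 68.7 and 60.8 CPM in single KO hearts and at 157, 143 and 219 CPM in double KO hearts, a log2 difference of 1.34 ± 0.19 (SE). The lowest double KO heart stood at 2.35 times the level of single KO replicate 3. Dpt encodes dermatopontin, which binds decorin and helps fibrils assemble. It stood at 63.1, 43.8 and 49.2 CPM and then 90.5, 90.6 and 123 CPM, a log2 difference of 0.96 ± 0.19 (SE). Prg4 encodes lubricin, the lubricating proteoglycan of joints and of surfaces that slide. It stood at 9.27, 6.89 and 10.9 CPM in the single KO hearts and 24.6, 38.8 and 65.9 CPM in the double KO hearts, and its log2 difference of 2.26 ± 0.34 (SE) was the largest and least precise of the 10. It fell to 1.14 with the mean log2 level of the atrial genes as a covariate, below Cytl1 at 1.4. The 3 double KO hearts differed from each other more for Prg4 than for Gsn, since they were 2.72-fold, 4.31-fold and 7.31-fold above the single KO mean.

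The receptor, the enzymes and the small secreted protein complete the group. Pdgfra, the receptor for PDGF-A that marks resident fibroblasts, stood at 36.1, 41.3 and 49.7 CPM in the single KO hearts and 53.3, 51.2 and 59.0 CPM in the double KO hearts. Its groups nearly touched, and its log2 difference of 0.36 ± 0.15 (SE) was the smallest of the 10. Dpep1, a membrane dipeptidase that cleaves leukotriene D4 and cysteinyl-glycine, stood at 45.2 to 50.9 CPM in the single KO hearts and 63.2 to 81.1 CPM in the double KO hearts, a log2 difference of 0.59 ± 0.14 (SE). Mgst1, a microsomal glutathione transferase, stood at 9.84, 8.99 and 10.3 CPM and then 17.8, 19.5 and 23.6 CPM, a log2 difference of 1.07 ± 0.17 (SE). Cytl1, a small secreted cytokine-like protein known from cartilage, stood at 4.07, 6.21 and 6.23 CPM in the single KO hearts and 15.6, 20.0 and 21.2 CPM in the double KO hearts. Its log2 difference was 1.78 ± 0.22 (SE), and it rested on 50 to 83 counts in a single KO library and 188 to 262 counts in a double KO library.

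Double KO replicate 1 was the lowest of its group in Myl7, Myl4 and Sln. The atrial list also holds Nppa, which stressed ventricles make too, and with it the sum was 1189.6, 2728 and 2743 CPM in the single KO hearts and 7459.5, 1269 and 4217 CPM in double KO replicates 1 to 3, highest in replicate 1. With replicate 1 as the sole double KO heart, the log2 difference was 1.00 for Gsn, 1.22 for Dcn, 0.67 for Lum, 0.79 for Dpt, 0.57 for Dpep1 and 0.32 for Pdgfra. It was 1.19 for Fbln1, 1.49 for Cytl1 and 0.87 for Mgst1, and Prg4 moved most, to 1.44. The part of atrial tissue in the difference was not tested. With single KO replicate 3, which lacked Y-linked transcripts like all the double KO hearts, as the only control, the 10 differences ran up to 1.98 for Prg4, with 0.98 for Gsn and 1.5 for Fbln1. The lowest were 0.23 for Lum and 0.12 for Pdgfra, whose lowest double KO libraries stood at 0.925-fold and 1.03-fold of that heart. In both of these fits the lone library is assumed to vary like the other group.

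Several lists of markers of other cells differed between the same groups, though 0 of their genes passed in edgeR. All 9 mesothelial markers, genes of the outer lining of the heart such as Msln, were above 0 in log2 difference, with a median of 2.11. Their summed level was 32.4, 11.6 and 14.7 CPM in single KO and 25.4, 51.7 and 131 CPM in double KO replicates 1 to 3. Double KO replicate 3, highest in this sum, was also the highest of the 6 libraries for Gsn, Dpt, Pdgfra, Fbln1, Prg4, Cytl1 and Mgst1; Dcn and Lum were highest in replicate 1 and Dpep1 in replicate 2. The summed valve and cartilage-like genes, such as Chad and Fmod, were at 20.5, 37.7 and 13.0 CPM in the single KO hearts and 103, 44.7 and 84.3 CPM in the double KO hearts. Fmod made up most of the mean sum in both groups. It is given again below as a small leucine-rich proteoglycan, so the sum is largely the level of that gene. Adipocyte markers other than Lipe summed to 0.0813, 0.0749 and 0 CPM in single KO and to 0.415, 5.47 and 108 CPM in double KO replicates 1 to 3, and Adipoq, Cidec, Lep and Retn were at 0 in every single KO library. All 8 macrophage markers were above 0, with a median of 0.45, and summed to 175 to 303 CPM in single KO and 268 to 399 CPM in double KO hearts, with overlap. All 5 tested Schwann cell markers were above 0, with a median of 0.52, and summed to 9.28 to 16.4 CPM and 13.6 to 27.1 CPM, also with overlap. Endothelial markers were lower without overlap in their sum, at 1517 to 1659 CPM in single KO and 1286 to 1454 CPM in double KO hearts, and so were red blood cell transcripts, at 8129 to 10042 and 4555 to 7763 CPM. The summed cardiomyocyte and mural markers overlapped between the groups. Double KO replicate 1 had 25.4 mesothelial CPM, within the single KO range, and the highest valve and macrophage levels of the 6; the 10 genes there stood from 1.26-fold (Pdgfra) to 2.83-fold (Cytl1) of the single KO mean. The part of these cells in the difference of the 10 genes was not tested.

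**Figure D2:**
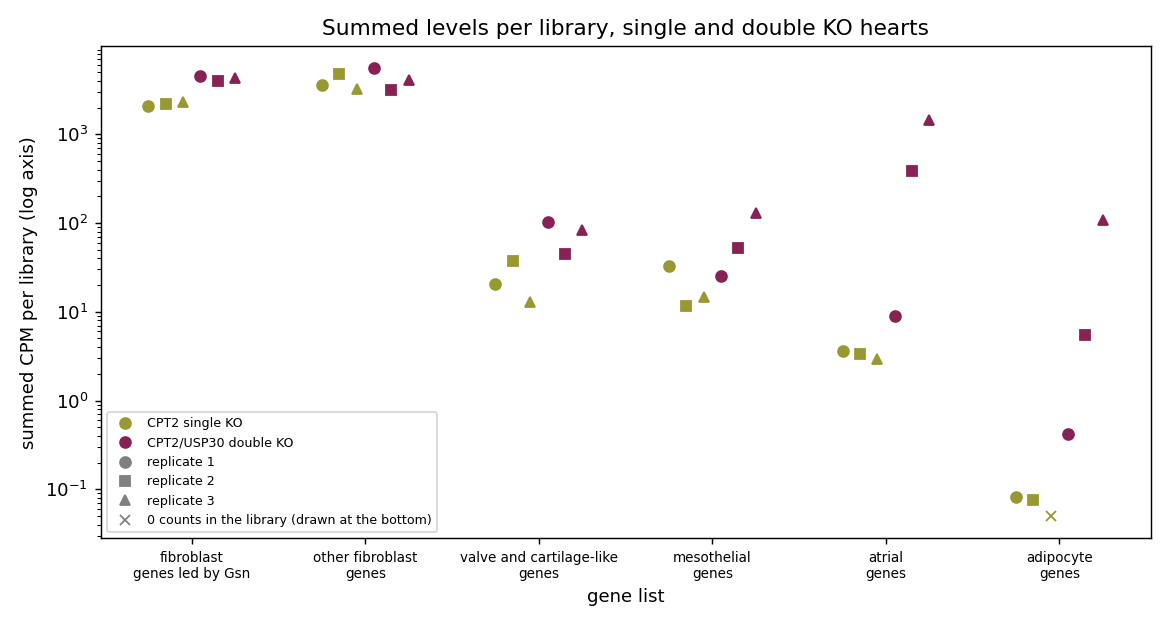
Summed CPM per library (log axis) for the 10 genes, the other fibroblast genes and 4 marker lists in single KO and double KO hearts; atrial genes are Myl7, Myl4 and Sln, adipocyte genes leave out Lipe, and a cross marks a library with 0 counts. The 10 genes separate the groups (2087 to 2282 against 3955 to 4482 CPM), which may only restate how they were chosen. Gsn and Dcn make up most of their sum. The other fibroblast genes overlap between the groups (3201 to 4799 against 3162 to 5534 CPM). Atrial, mesothelial and adipocyte sums are highest in double KO replicate 3.

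The other fibroblast genes did not separate the single and double KO groups in their sum. Their 24 tested members summed to 3601, 4799 and 3201 CPM in the single KO hearts and 5534, 3162 and 4056 CPM in the double KO hearts. None passed an adjusted p of 0.05 in edgeR, and their median log2 difference was 0.26, with 20 of 24 above 0. For this and the following lists, levels are means of 3 hearts per group, followed by the log2 difference and its SE. Col1a1 was at 546 CPM in the single KO hearts and 631 in the double KO hearts (log2 difference 0.21 ± 0.30, SE), Mfap4 at 124 and 150 CPM (0.27 ± 0.55), and Lamc3 at 8.97 and 7.25 CPM (-0.31 ± 0.50). Scara5, a ferritin receptor of resting fibroblasts, was at 5.98 and 11.5 CPM (0.94 ± 0.34). Of the activated fibroblast genes 0 of 20 tested passed in edgeR, 16 were above 0 and the median was 0.46. The listed genes summed to 835, 1432 and 945.5 CPM in the single KO hearts. In double KO replicates 1 to 3 they summed to 2483, 767 and 989 CPM, with overlap, and replicate 2 lay below every single KO heart.

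The relatives of Dcn and Lum followed them in sign. All 9 other small leucine-rich proteoglycans that were tested were above 0, with a median log2 difference of 0.50, and 0 passed in edgeR. Of all tested genes, 50.4% were above 0. The listed relatives summed to 953, 1284 and 939 CPM in the single KO hearts. In double KO replicates 1 to 3 they summed to 2288, 954 and 1405 CPM, with overlap, replicate 1 standing well above the rest. Fmod, which encodes fibromodulin, was at 12.8 CPM in the single KO hearts and 54.2 CPM in the double KO hearts (2.07 ± 0.45, SE), without overlap of the groups. Podn was at 29.0 and 75.1 CPM (1.37 ± 0.40) and Prelp at 104 and 172 CPM (0.73 ± 0.21), also without overlap. Ogn, encoding osteoglycin, was at 81.0 and 114 CPM (0.50 ± 0.18), and Bgn, encoding biglycan, at 750 and 1029 CPM (0.46 ± 0.36), with overlap. The 17 other proteoglycans had a median of 0.00 and the 21 enzymes that build chondroitin and dermatan sulfate chains a median of 0.04, and 0 genes of either list passed.

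Among fibulins and elastic fibre genes, Efemp1, a fibulin relative of Fbln1, was at 1.71 CPM in the single KO hearts and 7.79 CPM in the double KO hearts (2.19 ± 0.59, SE), without overlap. Fbln2 was at 295 and 296 CPM (0.00 ± 0.33) and Fbln5 at 48.3 and 73.2 CPM (0.60 ± 0.27). The 18 genes had a median of 0.26. The 6 other gelsolin family genes had a median of -0.03; Capg, an actin capping protein, was at 13.2 and 20.8 CPM (0.65 ± 0.23), and Svil at 528 and 509 CPM (-0.05 ± 0.21). The 6 other PDGF ligands and receptors had a median of 0.13, and Pdgfrb, the mural cell receptor, was at 141 and 146 CPM (0.05 ± 0.14). Of 17 glutathione transferase and leukotriene pathway genes, 16 were above 0, with a median of 0.33. Gstm1 was at 178 and 309 CPM (0.80 ± 0.27) and Gstm2 at 35.1 and 62.0 CPM (0.82 ± 0.17); these are closely related copies whose reads may be split between them. In none of these 4 lists did a gene pass in edgeR.

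**Figure D3:**
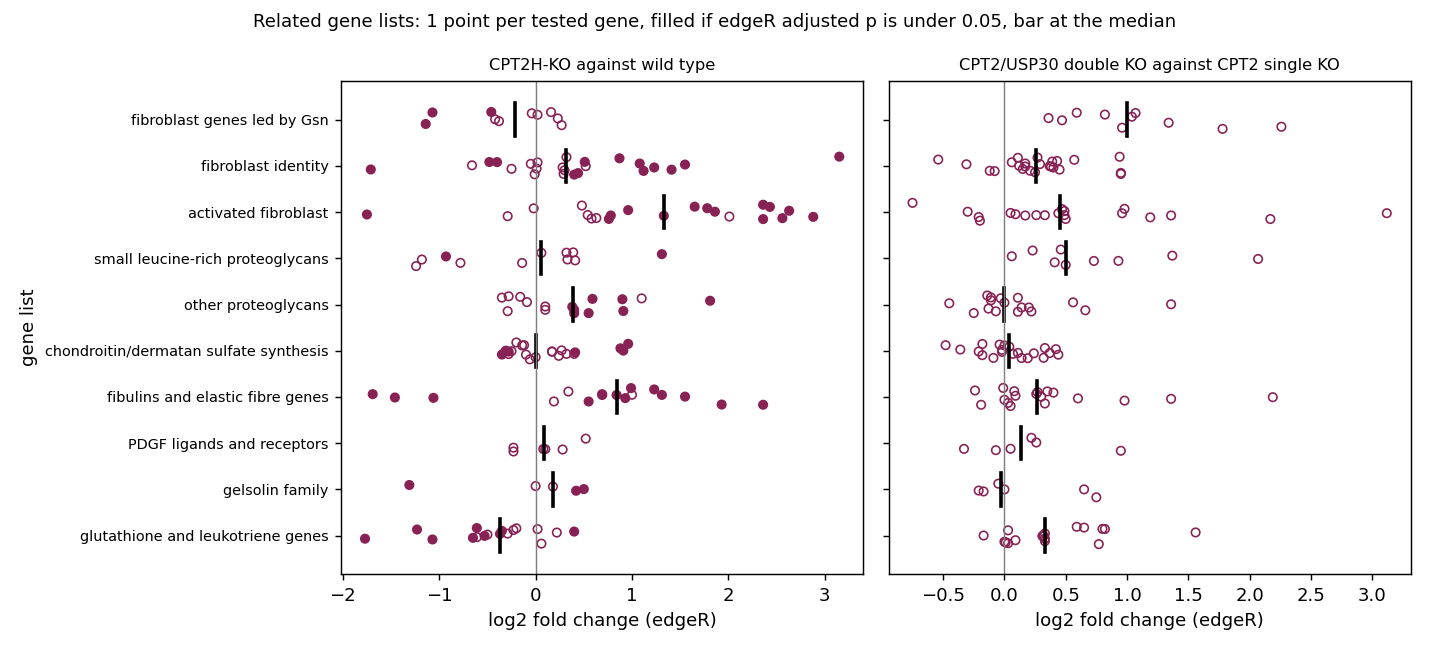
Log2 fold changes of the 10 genes and of 9 related lists in both comparisons, 1 point for each tested gene, filled where the edgeR adjusted p was under 0.05, with a bar at each median; vertical jitter carries no information. In CPT2H-KO against wild type hearts the activated fibroblast median is 1.33 and that of the 10 genes is -0.21, while in double against single KO hearts no point is filled and the 10 genes have the median of 1.00.

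CPT2 loss compared with wild type hearts gave another picture. Of the 10 genes 3 (Gsn, Cytl1 and Mgst1) were lower at an adjusted p under 0.05 in edgeR, 0 were higher and 7 were past it in neither direction. The test called 33.7% of the 14123 genes, 16.7% higher and 17.0% lower. Counts of 3 lower and 0 higher among 10 genes are close to these shares and are no result about the group. The median log2 fold change of the 10 was -0.21, against -0.01 for all genes, and 4 of the 10 were above 0. Their summed level was 867 to 1353 CPM in wild type and 820 to 1107 CPM in CPT2H-KO hearts, with overlap.

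**Figure D4:**
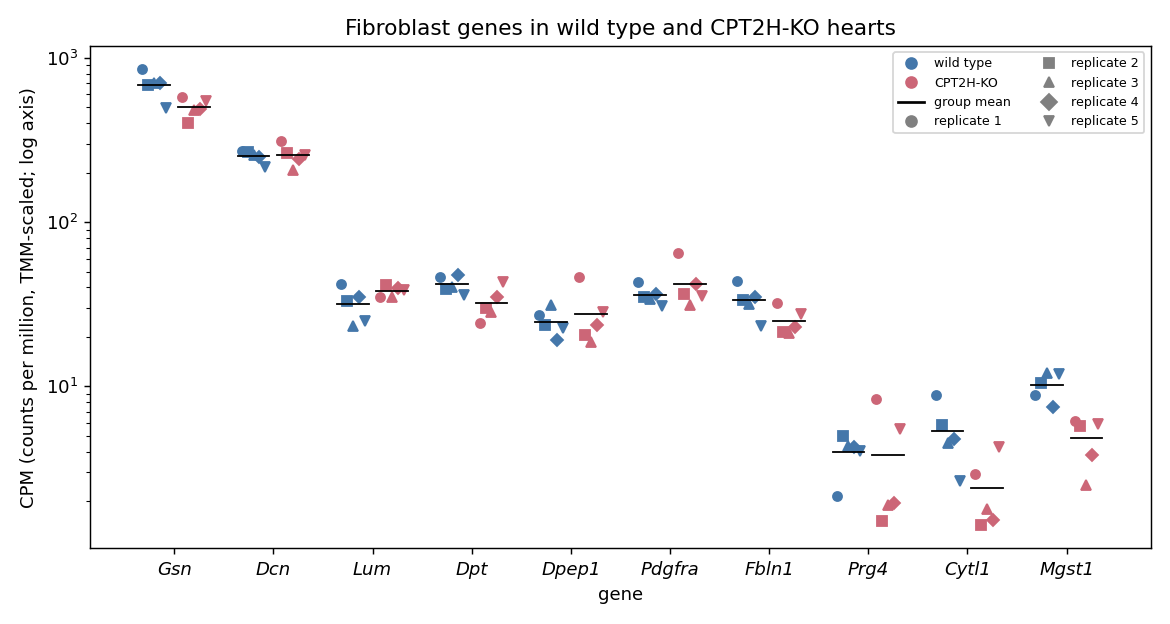
CPM of each gene (log axis) in the 5 wild type and 5 CPT2H-KO libraries, with marker shapes for replicates and a bar at each group mean. The groups overlap for every gene except Mgst1, whose 5 CPT2H-KO libraries, at 2.52 to 6.13 CPM, all lie below the wild type libraries, at 7.49 to 12.0 CPM.

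Gsn stood at 858, 680, 704, 701 and 495 CPM in wild type replicates 1 to 5 and at 576, 399, 482, 490 and 548 CPM in CPT2H-KO replicates 1 to 5. The group means were 687 ± 129 and 499 ± 68.4 CPM (SD, n = 5 each), a log2 fold change of -0.46 ± 0.14 (SE). The wild type library lowest in Gsn lay among the CPT2H-KO libraries. Mgst1 stood at 8.90, 10.5, 12.0, 7.49 and 11.9 CPM in wild type and at 6.13, 5.71, 2.52, 3.84 and 5.88 CPM in CPT2H-KO hearts. It was the 1 member without overlap, where 13.2% of all genes were lower without overlap, and its log2 fold change was -1.07 ± 0.23 (SE). Cytl1 stood at 8.81, 5.82, 4.49, 4.8 and 2.66 CPM in wild type and 2.94, 1.4, 1.79, 1.55 and 4.25 CPM in CPT2H-KO hearts. Its log2 fold change was -1.14 ± 0.36 (SE), and CPT2H-KO replicates 1 and 5 lay inside the wild type range. Gsn and Cytl1 lay near the threshold. Gsn was no longer past it without wild type replicate 1, 2 or 3 or CPT2H-KO replicate 2 (-0.37, -0.46, -0.45 and -0.39). Cytl1 was no longer past it without wild type replicate 1 or 2 or CPT2H-KO replicate 2, 3 or 4 (-0.88, -1.10, -1.0, -1.05 and -1.01). Mgst1 stayed past it whichever replicate was left out. Values of these libraries may have chosen the genes, so these fits are a description and no test of a gene.

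Dcn hardly differed. It stood at 272, 269, 257, 248 and 216 CPM in wild type and 310, 263, 207, 242 and 255 CPM in CPT2H-KO hearts, a log2 fold change of 0.02 ± 0.11 (SE). Lum stood at 41.9, 33.0, 23.2, 34.8 and 25.0 CPM in wild type and 35.1, 41.3, 35.1, 39.9 and 38.6 CPM in CPT2H-KO hearts (0.27 ± 0.15). Wild type hearts spread over a wider range of Lum than CPT2H-KO hearts. Fbln1 ranged over 23.3 to 43.9 CPM in wild type and 21.1 to 32.1 CPM in CPT2H-KO hearts (-0.42 ± 0.16), and Dpt over 35.8 to 47.9 and 24.4 to 43.4 CPM (-0.38 ± 0.14). Neither was past the threshold in edgeR with all libraries. Dpt was past it in DESeq2, in limma-voom and without CPT2H-KO replicate 5 (-0.51), Fbln1 without wild type replicate 5 or CPT2H-KO replicate 1 (-0.52 each), and Lum without wild type replicate 1 (0.39). With library totals as the only scaling Dpt (-0.65) and Fbln1 (-0.7) were past it too, and so was Fbln1 with the sex term (-0.47).

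Pdgfra stood at 43.4, 35.1, 33.9, 36.3 and 30.9 CPM in wild type and at 65.3, 36.2, 31.2, 41.8 and 35.6 CPM in CPT2H-KO hearts (0.23 ± 0.18). Its highest value, in CPT2H-KO replicate 1, carried the difference, which was 0.01 without that library. Dpep1 was also highest there, at 46.5 CPM against 18.6 to 28.5 CPM in the other 4 CPT2H-KO hearts and 19.2 to 31.1 CPM in wild type (0.16 ± 0.23), and its sign turned to -0.11 without it. Prg4 stood at 2.14, 5.02, 4.32, 4.27 and 4.03 CPM in wild type and at 8.34, 1.51, 1.89, 1.95 and 5.53 CPM in CPT2H-KO hearts (-0.04 ± 0.45). CPT2H-KO replicates 1 and 5 lay above every wild type library for Prg4 and the other 3 below every wild type library.

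CPT2H-KO replicates 1 and 5, the ones with atrial RNA, were above the mean of their group over the 10 genes by 0.39 and 0.26 on the log2 scale. Replicates 2, 3 and 4 were below it, at -0.20, -0.33 and -0.13. With replicates 1 and 5 as the only CPT2H-KO hearts, the log2 fold change was -0.29 for Gsn, -0.55 for Cytl1 and -0.76 for Mgst1, and 1 of the 10 genes still passed in edgeR. With the mean log2 level of these 3 atrial genes as a covariate, 0 of the 10 passed, and Gsn stood at -0.21, Cytl1 at -0.38 and Mgst1 at -0.86. Mesothelial markers did not pass in either direction (0 of 9, median -0.50), and their summed level was 9.71 to 12.9 CPM in CPT2H-KO replicates 1 to 4, 29.2 CPM in replicate 5 and 13.3 to 30.0 CPM in wild type. Adipocyte markers other than Lipe summed to 0.0395 to 0.0813 CPM in CPT2H-KO replicates 1 to 4, 9.78 CPM in replicate 5 and 1.80 to 10.2 CPM in wild type.

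**Figure D5:**
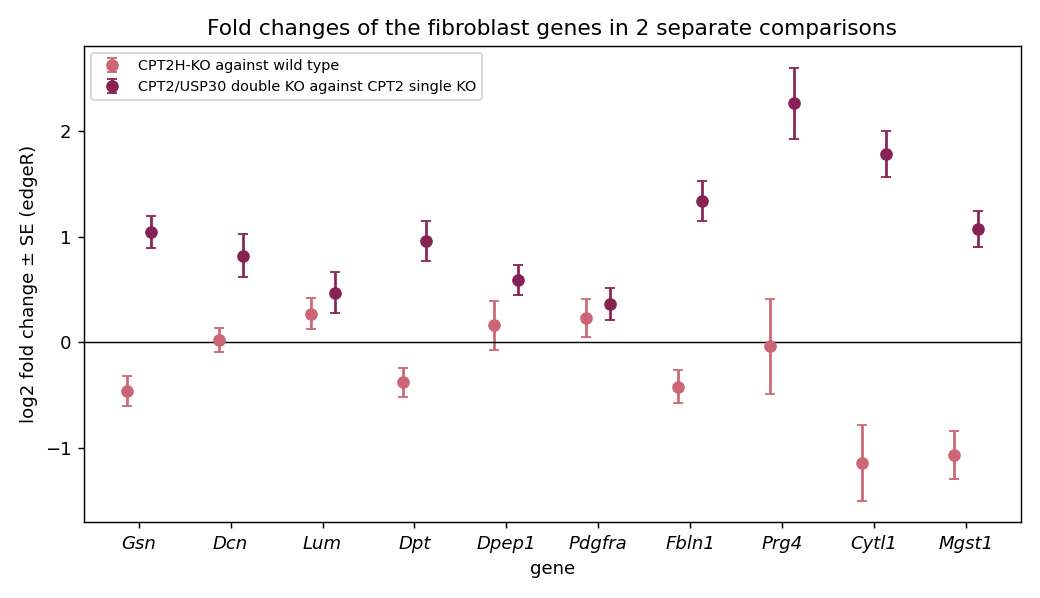
Log2 fold change with its SE (edgeR) of each gene in CPT2H-KO against wild type hearts (n = 5 each) and in double KO against single KO hearts (n = 3 each), 2 comparisons with no library in common. Values run from -1.14 to 0.27 in the first and from 0.36 to 2.26 in the second.

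Of the 24 other fibroblast genes tested, 10 rose and 3 fell in CPT2H-KO hearts, where 16.7% of all genes rose and 17.0% fell. These shares hold as the background for each list below. The 24 genes had a median log2 fold change of 0.31, and their summed level was 855 to 1349 CPM in wild type and 1387 to 2275 CPM in CPT2H-KO hearts, without overlap. Collagen I rose: Col1a1 went from 71.2 ± 21.1 to 189 ± 62.0 CPM (SD, n = 5 each; log2 fold change 1.41 ± 0.24, SE; edgeR adjusted p = 0.00138). Mfap4, a microfibril protein, rose from 8.10 ± 1.37 to 23.7 ± 10.0 CPM (1.55 ± 0.26). Lamc3, a laminin chain, rose from 0.993 ± 0.260 to 8.74 ± 6.23 CPM (3.15 ± 0.41). Scara5 fell from 8.47 ± 0.749 to 2.57 ± 1.20 CPM (-1.71 ± 0.28). Tcf21, a resting marker, stood at 2.14 and 2.09 CPM and Cd248 at 4.68 and 4.67 CPM, with log2 fold changes of -0.05 ± 0.22 and -0.01 ± 0.21.

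Of 21 activated fibroblast genes tested, 13 rose and 1 fell (16.7% and 17.0% of all genes), with a median of 1.33. The 21 genes summed to 274 to 413 CPM in wild type hearts. In CPT2H-KO replicates 1 to 5 they summed to 1209, 934, 376, 429 and 453 CPM, with overlap, replicates 1 and 2 standing well above the rest. Cilp, a matrix protein of stressed hearts, rose from 13.2 ± 2.55 to 81.5 ± 46.5 CPM (2.63 ± 0.35, SE), and Col8a1 from 20.0 ± 3.25 to 102 ± 60.9 CPM (2.36 ± 0.35). Tnc, encoding tenascin-C, rose from 2.53 ± 0.802 to 13.6 ± 9.28 CPM (2.43 ± 0.42). The gene that fell was Acta2, smooth muscle actin, which is also made by vessel walls; it went from 117 ± 26.8 to 34.9 ± 16.0 CPM (-1.75 ± 0.27). Mural markers fell beside it, 4 of 8 lower and 1 higher, and of 9 cardiomyocyte markers 6 fell and 0 rose. The part of these cells in the levels of the 10 genes was not tested.

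Of the 11 tested relatives of Dcn and Lum among the small leucine-rich proteoglycans, 1 rose and 1 fell in CPT2H-KO hearts, where 33.7% of all genes were called in either direction. Bgn rose from 67.2 ± 6.63 to 166 ± 53.8 CPM (1.31 ± 0.19, SE; edgeR adjusted p = 0.000577) and Ogn fell from 77.0 ± 9.73 to 40.3 ± 5.14 CPM (-0.93 ± 0.11; adjusted p = 0.000168). The other 9 did not pass, among them Fmod (6.91 and 8.71 CPM), Podn (8.31 and 4.79 CPM) and Prelp (22.7 and 28.3 CPM). Of 16 other proteoglycans 8 rose and 0 fell, with a median of 0.39: Vcan, encoding versican, rose from 30.7 ± 9.10 to 57.9 ± 13.9 CPM (0.91 ± 0.21), and Gpc6, a cell surface heparan sulfate proteoglycan, from 11.5 ± 0.754 to 21.5 ± 8.08 CPM (0.90 ± 0.20). Of 21 enzymes that build chondroitin and dermatan sulfate chains 4 rose and 3 fell, close to the share of all genes, with a median of 0.00. Chst15, a chondroitin sulfotransferase, rose from 5.19 ± 1.02 to 10.1 ± 2.38 CPM (0.96 ± 0.18).

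Of 17 fibulins and elastic fibre genes tested beside Fbln1, 10 rose and 3 fell (16.7% and 17.0% of all genes), with a median of 0.84. They summed to 382 to 592 CPM in wild type and 538 to 1256.5 CPM in CPT2H-KO hearts, with overlap. Fbln2 rose from 65.5 ± 8.41 to 117 ± 52.4 CPM (0.84 ± 0.25, SE) and Fbln5 from 12.0 ± 1.66 to 23.8 ± 13.5 CPM (0.99 ± 0.31), while Fbln1 itself stood at 33.4 ± 7.37 and 25.0 ± 4.74 CPM. The 3 that fell were Efemp1 (-1.46 ± 0.46), Emilin2 (-1.69 ± 0.18) and Ltbp1 (-1.06 ± 0.15); Emilin2 went from 37.2 ± 5.11 to 11.5 ± 2.97 CPM.

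Among relatives of Gsn, Svil, encoding supervillin, rose from 206 ± 2.33 to 275 ± 22.8 CPM (0.42 ± 0.06, SE) and Capg from 3.91 ± 0.269 to 5.53 ± 1.21 CPM (0.50 ± 0.14), while Avil, advillin, fell from 0.555 ± 0.148 to 0.221 ± 0.0453 CPM (-1.31 ± 0.24). The other 2 tested, Scin and Flii, did not pass. None of the 6 PDGF ligands and receptors passed beside Pdgfra, with a median of 0.09; Pdgfa was at 7.40 and 6.32 CPM and Pdgfrb at 47.4 and 51.0 CPM. Of 17 glutathione transferase and leukotriene pathway genes tested, 8 fell, 1 rose and 8 did not pass (17.0% and 16.7% of all genes fell and rose), with 4 above 0 and a median of -0.37. Mgst3, a microsomal relative of Mgst1, fell from 71.3 ± 6.67 to 45.6 ± 2.25 CPM (-0.65 ± 0.07), and Gstk1, a mitochondrial and peroxisomal transferase, from 21.5 ± 3.44 to 6.26 ± 2.65 CPM (-1.77 ± 0.29). Gstm5 fell from 15.0 ± 0.875 to 9.83 ± 1.25 CPM (-0.61 ± 0.09), and the 1 that rose was Lap3, a cytosolic aminopeptidase, from 22 ± 1.27 to 29.1 ± 0.982 CPM (0.40 ± 0.06).

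The 10 genes did not all vary together from heart to heart. Within groups of the first table, deviations from the group mean in log2 CPM correlated with the mean deviation of the other 9 at r = 0.85 for Fbln1, 0.82 for Dcn, 0.76 for Dpep1 and 0.74 for Cytl1 over 10 libraries. For Lum r was 0.13 and for Dpt 0.08. Over the 6 libraries of the second table, r was 0.88 for Mgst1, 0.65 for Pdgfra and 0.62 for Gsn, but -0.41 for Dcn and -0.52 for Dpep1. These are descriptions over few libraries that share tissue and processing, and carry no p. The 5 genes outside the group whose deviations were most like the mean of the 10 in the first table were Camk2n1 (r = 0.97), Mpp6 (0.94), Slit3 (0.94), Ptpmt1 (0.94) and Foxc1 (0.93), each over 10 libraries. Over the 6 libraries of the second table their r was 0.13, -0.09, 0.47, -0.51 and -0.52, 3 of the 5 below 0.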

How the data were processed

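The deposited files are 2 tables of gene-level read counts from mouse heart RNA, which the authors left unnormalized as whole numbers (TruSeq stranded libraries with ribosomal RNA removed, per the labels' protocols). The submitters' processing notes name bcl2fastq, HISAT2, DESeq2 1.42.0 and the build mm10; the sources used here name no counting tool and no strand setting. The first table holds no gene with a total under 151 counts, and 1 unnamed row of the second was dropped.

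Each table was filtered with filterByExpr, scaled with TMM and fitted with edgeR 4.0.16 (quasi-likelihood test, R 4.3.3), with p-values adjusted by Benjamini-Hochberg over all tested genes and a threshold of 0.05; SE was obtained from the log2 fold change and its F statistic. Levels per kilobase used the union of GENCODE M21 exons. DESeq2 1.42.0, limma-voom (limma 3.58.1), other scalings, no filter, a replicate block, atrial and sex terms and leaving out libraries were alternatives; leaving out the libraries low or high in atrial or Y-linked transcripts was chosen after seeing the data. Scripts were tested on simulated data. No 2 libraries of a group agreed within sampling noise (lowest chi-square per degree of freedom 10.7).

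The members and gene lists were chosen with earlier results of these data known. Named genes were the 10 members, up to 4 genes per related list with the smallest p in CPT2H-KO against wild type, close relatives of members, and the 5 genes most alike in their deviations (log2 CPM of at least 1, pseudocount 0.5). Other named genes, such as the tissue markers, were chosen after their values were seen.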

Additional observations from a re-analysis of the deposited data

How the results depend on the processing

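In double KO against single KO hearts, all 10 genes kept their direction under the 16 alternatives, with a median log2 difference between 0.88 (atrial covariate) and 1.05 (without double KO replicate 1). The number of members called was 0 in edgeR, 7 in DESeq2, 1 with the atrial covariate, 3 without the double KO libraries with atrial transcripts, and 0 to 6 when 1 replicate was left out. All genes called were 0 in edgeR, 113 in DESeq2, 64 with the atrial covariate, 36 without the double KO libraries with atrial transcripts, and 0 to 114 when 1 replicate was left out (114 without double KO replicate 1, 4 without single KO replicate 3). Fibroblast identity genes called were 1 with the atrial covariate and 1 without those libraries. Activated fibroblast genes called were 2 in DESeq2, 2 with the covariate and 3 without those libraries, and small leucine-rich proteoglycans called were 1 in DESeq2 and 0 to 3 when 1 replicate was left out. The cause of these changes was not tested.

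In CPT2H-KO against wild type hearts, 3 members were called, 5 with library totals as the only scaling, 4 in DESeq2 and limma-voom, 0 with the atrial covariate and 1 without the CPT2H-KO libraries lowest in atrial transcripts; leaving out 1 replicate gave 1 to 4, with 1 without wild type replicate 2 and 1 without CPT2H-KO replicate 2. The median of the members was -0.51 with library totals, where the median of all genes moved to -0.27, and 0.03 with the atrial covariate. Under library totals the log2 fold change was -0.25 for Dcn, -0.13 for Dpep1 and -0.06 for Pdgfra. All genes called were 3103 with the atrial covariate. Small leucine-rich proteoglycans called were 4 with library totals, 4 without the CPT2H-KO libraries lowest in atrial transcripts, and 2 to 4 when 1 replicate was left out (4 without CPT2H-KO replicate 5).

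Same-numbered libraries correlated at -0.05 to 0.26 in the first table and -0.20 to 0.18 in the second. The same-numbered library was the best match in the other group for wild type replicates 1 and 4 and single KO replicate 1. So few libraries cannot show whether replicate numbers pair the samples, and nothing states it. With the replicate block 4179 genes and 3 members were called in the first table, and 1 gene and 0 members in the second. With 3 hearts per group and 11067969 to 13532716 counts per library, Cytl1, Mgst1 and Prg4 rested on the fewest counts. In a single KO library Cytl1 had 50 to 83 counts, Prg4 92 to 119 and Mgst1 112 to 121. In a double KO library Cytl1 had 188 to 262 counts, Mgst1 215 to 292 and Prg4 296 to 814.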
